A study of Hydra vulgaris with 2 samples.

Results

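The mRNAs described here were sequenced from extracellular vesicle (EV) preparations of *Hydra vulgaris* and had whole-number counts in each of 2 libraries. They were chosen by their own counts. A target qualified if it was a RefSeq model mRNA shorter than 8000 bases with a whole estimated count of at least 10 in both libraries. The deposited tables hold 25314 targets of all kinds, of which 21781 are RefSeq model mRNAs under that length. Of these, 156 reached 10 counts in both libraries, and 105 of them had whole counts. Of these 105, 6, of genes for actin, tubulin beta, annexin A4-like, ADP-ribosylation factor 1 and an alcohol dehydrogenase domain protein, were left out by name, so that 99 mRNAs remained, called the members here. A whole estimate is what kallisto, the program used by the authors, returns where no read had to be divided between targets, although a whole number does not prove it. A gene name was found for 97 members, and the remaining 2 are given by their transcript identifiers.

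EVs were collected from the medium of polyps of the strain Zurich that had been starved for 4 days, with 250 polyps in 10 mL of Hydra solution per dish. The vesicles were treated with proteinase K and then with RNase A before total RNA was extracted, and this applies to both libraries. The library titled ExoRNA5000Hy is called library A, or A for short, and the one titled ExoRNA11250Hy library B, or B. The titles appear to give numbers of Hydra, but what they count is not stated and they could not be matched to the polyp number in the study's methods, so the part of this difference in any ratio was not tested. They are replicates of 1 condition with no treatment and no control, and RNA of whole polyps was not analysed here, so every value is a level in EVs and none is an enrichment. EVs are identified by their proteins and shape, so these RNA tables cannot check the label.

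EVs are membrane-bound particles that cells shed into their surroundings, and RNase treatment before extraction removes RNA that lies outside a membrane. mRNAs that cells hold in many copies, such as those for ribosomal proteins, elongation factors and the actin cytoskeleton, are commonly found in EV preparations. Other cargo can include mRNAs of signalling proteins, of enzymes and of proteins that shape intracellular membranes.

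Library A held 5943550 estimated counts over all targets and library B 3943873, of which the 5 most abundant targets took 97.0% in A and 98.7% in B. The 99 members held 14331 counts in library A against 2579 in library B, or 0.241% of all counts in A and 0.0654% in B. Of the mRNA counts alone they held 3.92% in A and 2.89% in B. Of the mRNA counts outside the 5 most abundant targets they held 10.0% in A and 7.39% in B. The median member had 108 counts in library A against 16 in library B, and 69 members had 20 or fewer counts in library B. A count of 10 has an exact 95% Poisson interval of 4.795 to 18.4. All intervals below take each count as independent and express counting error and nothing else. Several reads can stem from the same molecule, and the intervals are then too narrow.

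The most abundant member was the mRNA of a Y-box factor (LOC100211522), a cold-shock domain protein that binds mRNA. It had 704 counts in library A against 106 in library B, which are 84.0 TPM in A and 20.1 in B, an abundance corrected for transcript length and library depth, with a mean of 52.1 ± 45.2 TPM (SD, n = 2 libraries). It stood at rank 67 among all targets by mean TPM. The next was LOC100198082, described as sulfatase-modifying factor 1-like and named after an enzyme that activates sulfatases in the endoplasmic reticulum. It had 276 counts in library A against 344 in library B, or 30.4 TPM in A and 60.2 in B, and it was the highest member of library B. LOC100204518, whose description only repeats a yeast reading frame name, YGR160W, followed with 56.3 TPM in A and 24.5 in B.

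Ribosomal protein mRNAs made up 8 of the 15 highest members, led by the stalk protein P2 (LOC100199163) with 52.2 TPM in library A against 8.27 TPM in library B. LOC100202274, a homolog of the DNA replication protein CDC45, had 49.3 TPM in A and 9.08 in B on 242 counts in A and 28 in B. LOC105843221, an ADP,ATP carrier of the inner mitochondrial membrane, had 43.3 TPM in A and 7.02 in B. A polyubiquitin-B gene (LOC100212621) closed the 15 with 34.3 TPM in A and 5.38 in B. Of these 15 mRNAs only LOC105845661, described as MNN4-like, stood at nearly the same level in both libraries, with 21.3 TPM in A and 20.8 in B (mean 21.1 ± 0.373 TPM, SD, n = 2). It is also the shortest member, at 315 bases, and its values rest on 33 counts in A and 20 in B. Its log2 ratio of 0.04 turned to -0.32 and -0.85 under the rescalings described below.

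**Figure D1:**
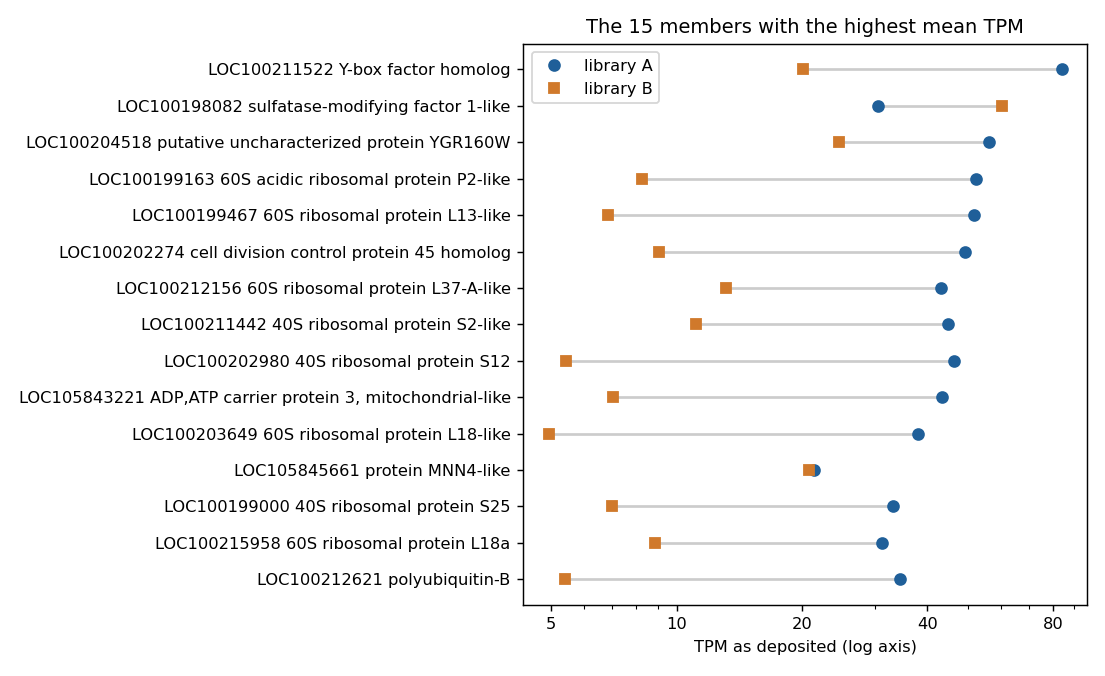
TPM as deposited on a log axis for the 15 members with the highest mean TPM, with a circle for library A and a square for library B and 1 row per gene. The circle lies to the right of the square in every row except that of LOC100198082, where library A had 30.4 TPM and library B 60.2 TPM.

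Levels of the members spanned 0.594 to 84.0 TPM in A and 0.295 to 60.2 TPM in B. Across the 99 members, log2(TPM + 0.1) of both libraries correlated with r = 0.531 (Pearson) and rho = 0.580 (Spearman). These are descriptions across genes, which are not independent replicates, and both axes carry the count limits of the choice. The median ratio of TPM in library A over library B was 4.19, or 2.04 on the log2(TPM + 0.1) scale. Over all 1066 mRNA targets with at least 20 counts in the libraries together, the median ratio was 10.7, or 2.78 on the log2(TPM + 0.1) scale. The choice itself sets part of that gap, since an mRNA with few counts in library B could not become a member.

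TPM is relative to everything else in a library, and here to very few targets. Leaving out the 5 most abundant targets and the large-subunit ribosomal RNA, and scaling TPM again, shifted every log2 ratio without a pseudocount by -0.35. Scaling over mRNA targets alone, without those 5, shifted it by -0.89. The mRNA-only scaling keeps LOC100208569, an mRNA with fractional counts that is no member. Of the mRNA counts outside those 5 targets, this single mRNA took 8.29% in A but 36.1% in B. Its part in the shift, and in signs and intervals that change under this scaling, was not tested. The order of the members by the ratio without a pseudocount is the same under any scaling. Most comparisons below are therefore made against the median ratio of the members. A ratio is given with the interval that counting error alone allows, from the exact binomial interval at 95% of how the counts of a gene divided between the libraries. This interval lay wholly above 1 for 82 members (82.8%), as it did for 93.4% of the 1114 targets of any class with at least 20 counts. It held 1 for 10 members (10.1%, against 4.31% of those targets) and lay wholly below 1 for 7 members (7.07%, against 2.33%). Set against the median ratio of the members, 22 intervals lay wholly above it (22.2%, against 27.3%), 56 held it (56.6%, against 66.5%) and 21 lay wholly below it (21.2%, against 6.19%). Since the choice asked for counts in library B, these shares are given with no reading of their difference.

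**Figure D2:**
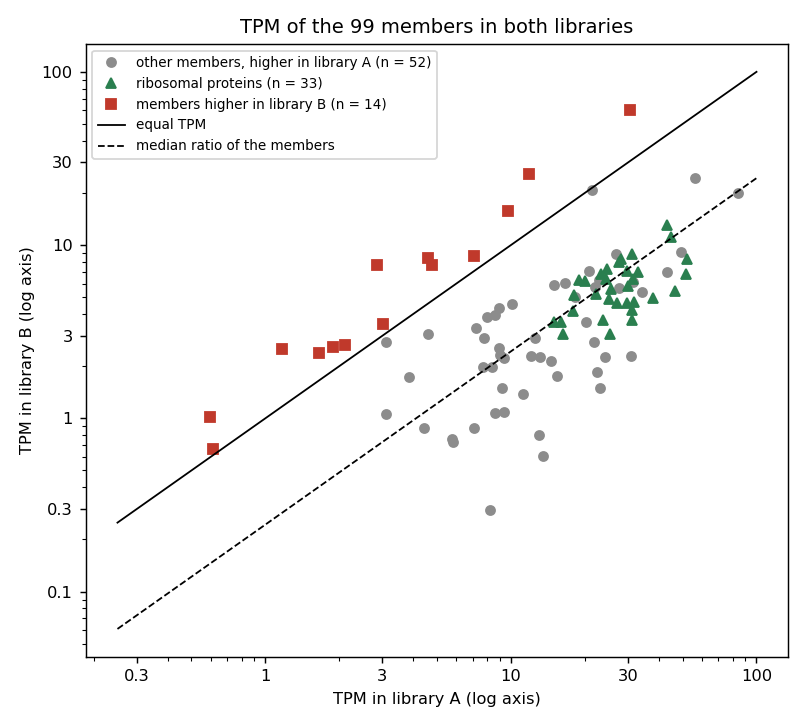
TPM in library A on the horizontal axis and in library B on the vertical axis for the 99 members, both axes logarithmic, with ribosomal proteins as triangles, members higher in library B as squares and the other members as circles. The solid line marks equal TPM and the dashed line the median ratio of 4.19. The triangles form a compact cloud about the dashed line, and the 14 squares lie above the solid line.

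Ribosomal proteins, the protein parts of the ribosome, were the largest group, with 33 members. They held 28.1% of the member counts in library A against 19.7% in library B. The deposited tables carry 60 mRNA targets with a ribosomal protein name in the part of the gene list used here, and of the 27 that are no members, 23 had whole counts of at least 10 in library A and only 1 to 9 in B. The other 4 had fractional counts. By comparison, 97 of the 927 named mRNA targets of all kinds were members. A group that is abundant passes a count limit more often, so these numbers describe the choice and support nothing.

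The levels of the 33 ribosomal protein mRNAs ranged from 15.0 to 52.2 TPM in library A, a 3.48-fold span, and from 3.06 to 13.1 TPM in library B, a 4.29-fold span. The 23 ribosomal protein targets that missed the limit only in library B reached up to 96.2 TPM in A and down to 1.24 TPM in B, so the limit cuts the band off at its lower end in B. The 20 mRNAs of the large subunit had a median of 27.8 TPM in library A against 5.38 TPM in library B, and the 13 of the small subunit 24.97 TPM in A and 5.77 in B. The median log2 ratio was 2.15 for the large subunit and 2.22 for the small one.

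All 33 were higher in library A than in library B under each of the 3 scalings, although the intervals of S23 and L44 (LOC100198396) came to hold 1 when TPM was scaled over mRNA targets alone. With TPM as deposited, 1077 of the 1114 targets of any class with at least 20 counts were higher in A too. The direction is thus not particular to this group. The log2 ratios of the 33 ran from 1.59 for S23 (LOC100197311, 63 counts in A and 13 in B) to 3.08 for S12 (LOC100202980, 164 counts in A and 12 in B). Their median was 2.17 and their SD 0.46. The 23 targets that missed the limit in B had log2 ratios of 1.62 to 4.01 with a median of 3.02, so the spread among the members is that of a set cut by its counts. The interval of 30 of the 33 held the group's own median ratio of 4.58, and the remaining 3 lay above it. The median half-width of these 95% intervals was 0.92 on the log2 scale.

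Single ribosomal proteins can be read in counts. S2 (LOC100211442), which lines the entry of the mRNA channel, had 250 counts in library A against 39 in library B, the most of the group in each, or 44.8 TPM in A and 11.1 in B. L37-A (LOC100212156), at 373 bases the shortest mRNA of the group, had 84 counts in A and 16 in B and the group's highest level in library B, 13.1 TPM. The 3 proteins of the lateral stalk, which recruits elongation factors, were all members. P0 (LOC100203038) had 26.9 TPM in A and 4.65 in B, P1 (LOC100200319) 28.0 TPM in A and 8.35 in B, and P2 the 52.2 TPM in A and 8.27 in B given above. S27a (LOC100210748), which is made as a fusion with ubiquitin, had 73 counts in A and 12 in B, or 24.3 TPM in A and 6.37 in B. L6 (LOC100203639) had the lowest level in library B, 3.06 TPM on 10 counts, against 25.4 TPM in library A. The lowest level of the group in library A, 15.0 TPM, was that of L10a (LOC100204815).

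Translation factors and their partners gave 5 members of 38 named targets, and all 5 were lower in library B under each scaling. So were 1077 of the 1114 targets of any class with at least 20 counts, with TPM as deposited. Polyadenylate-binding protein (LOC100205111), which coats the poly(A) tail, had 438 counts in library A against 18 in library B, or 23.0 TPM in A and 1.502 in B, a ratio of 15.3 (9.58 to 26.1). Elongation factor 2 (LOC100203564), which moves the ribosome along the mRNA, had 403 counts in A and 21 in B, or 22.4 TPM in A and 1.85 in B, with a ratio of 12.1 (7.80 to 19.7). For elongation factor 1-gamma (LOC100200942), a subunit of the complex that recharges elongation factor 1-alpha with GTP, the ratio was 7.95 (4.77 to 14.2). The intervals of these 3 lay wholly above the median ratio of the members. Those of the nascent polypeptide-associated complex subunit alpha (LOC100209087, 14.6 TPM in A and 2.15 in B) and of translationally-controlled tumor protein (LOC100199560, 22.0 TPM in A and 5.72 in B) held it.

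Of 32 named targets grouped by words of their descriptions with protein folding, 3 were members, all close to the median ratio. The words miss some chaperones, such as endoplasmin, named below. Calreticulin (LOC100203010), a calcium-binding chaperone of the endoplasmic reticulum, had 214 counts in library A against 24 in library B, or 20.3 TPM in A and 3.61 in B. Thioredoxin-like LOC100205970, a small redox protein, had 27.4 TPM in A and 5.68 in B, and the Hsp70 partner DnaJ homolog A1 (LOC100201285) 9.06 TPM in A and 2.31 in B. Histones and chromatin genes had no member among 17 named targets, of which 10 had fractional counts.

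Genes of the ubiquitin system and of protein turnover gave 5 members of 45 named targets and varied widely in ratio. The polyubiquitin-B genes encode chains of ubiquitin, the tag that marks proteins for degradation or sorting. LOC100212621 had 304 counts in library A against 30 in library B, and LOC100203041 201 in A and 35 in B, so that their levels were 34.3 TPM in A and 5.38 in B for the first and 22.8 TPM in A and 6.30 in B for the second. As near-identical repeats can share reads, the division between these genes is uncertain in spite of the whole counts. Antizyme inhibitor 2-like LOC100202037, of the polyamine pathway, had 274 counts in A and 16 in B and a ratio of 10.8 (6.52 to 19.1). Cullin-3 (LOC100202538), the scaffold of a family of ubiquitin ligases, had 182 counts in A and 185 in B, or 9.74 TPM in library A against 15.7 TPM in library B. Its ratio of 0.620 (0.502 to 0.764) lay below 1, and no other gene of the group was higher in library B. The ligase MYLIP-like LOC100199702 had 3.11 TPM in A and 1.07 in B on 51 counts in A and 11 in B. The interval of its ratio came to hold 1 when TPM was scaled over mRNA targets alone.

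Genes grouped by words of their descriptions with the cytoskeleton gave 10 members of 53 named targets, all of them higher in library A under each scaling. With TPM as deposited, 1077 of the 1114 targets of any class with at least 20 counts were higher in A too. The intervals of 2 of the 10, LOC100200694 and LOC100211509, came to hold 1 under both rescalings, and those of LOC100198816 and LOC100213922 when TPM was scaled over mRNA targets alone. Most of the 10 act on actin filaments. Profilin (LOC100200741), which delivers actin monomers, had 140 counts in library A against 29 in library B, or 26.9 TPM in A and 8.86 in B. Gelsolin-like LOC100210716, a severing and capping protein, had 18.3 TPM in A and 4.99 in B. Adenylyl cyclase-associated protein (LOC100203913), which recycles actin, had 7.68 TPM in A and 1.99 in B, and Arp2/3 subunit 1A (LOC100198816), of the complex that branches filaments, 7.80 TPM in A and 2.92 in B.

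The tropomyosin-1-like genes, whose products lie along the filament, had 16.6 TPM in A and 6.04 in B (LOC100213922) and 12.6 TPM in A and 2.93 in B (LOC100200169). The essential light chain of myosin-2 (LOC100211509) had 7.20 TPM in A and 3.31 in B, and the LIM domain gene LOC100200694 8.95 TPM in A and 4.35 in B on 36 counts in A and 11 in B. The intervals of these 8 genes held the median ratio of the members. Those of the remaining genes, both named as myosin heavy chains with long mRNAs, lay above it. Myosin-10-like LOC100207631 had 540 counts in library A against 21 in library B, or 13.0 TPM in A and 0.802 in B, a ratio of 16.2 (10.5 to 26.4). Myosin-6 (LOC100205834) had 306 counts in A and 24 in B, or 8.63 TPM in A and 1.07 in B, a ratio of 8.03 (5.30 to 12.7).

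Genes of membranes and vesicle traffic gave 6 members of 27 named targets. Reticulon-3-B-like LOC100211808, a protein that bends the membrane of the endoplasmic reticulum, had 88 counts in library A against 120 in library B, or 11.8 TPM in A and 25.6 in B. Its ratio of 0.461 (0.346 to 0.612) lay below 1. The receptor expression-enhancing protein LOC100202907, of a family that also shapes that membrane, had 8.03 TPM in A and 3.83 in B on 40 counts in A and 12 in B. The interval of its ratio, 1.08 to 4.39, lay above 1 but came to hold 1 under both rescalings, where its log2 ratio was 0.71 and 0.18.

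Annexin-B12 (LOC100203975), which binds membranes in the presence of calcium, had 97 counts in A and 24 in B, or 15.0 TPM in A and 5.88 in B, and a ratio of 2.54 (1.61 to 4.16). LOC100212346 is named after a schistosome tetraspanin, the 23 kDa integral membrane protein, and had 8.61 TPM in A and 3.97 in B with a ratio of 2.17 (1.27 to 3.89). Both intervals lay wholly below the median ratio of the members. That of LOC100212346 came to hold 1 under both rescalings, and that of Annexin-B12 when TPM was scaled over mRNA targets alone. The LAMP1-like gene LOC100211659, for a lysosomal membrane protein, had 9.41 TPM in A and 2.22 in B, close to the median ratio. Major vault protein (LOC100209402), the shell of a large ribonucleoprotein particle, had 220 counts in A and 17 in B, or 11.2 TPM in A and 1.38 in B, and a ratio of 8.15 (4.98 to 14.2) above it. Fibrillin-1-like LOC100207250, an extracellular matrix protein and the only member with a matrix name, had 5.75 TPM in A and 0.764 in B and a ratio of 7.52 (4.44 to 13.7), also above it.

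Iron, energy and metabolism gave 7 members of 73 named targets. Soma ferritin-like LOC100207147, for iron storage, had 94 counts in library A against 20 in library B, or 20.8 TPM in A and 7.05 in B. ATP synthase subunit alpha (LOC100197511) had 124 counts in A and 35 in B, or 10.1 TPM in A and 4.55 in B, and its ratio of 2.23 (1.52 to 3.35) lay below the median ratio. The ADP,ATP carrier lay above it, with 343 counts in A and 35 in B and a ratio of 6.17 (4.35 to 8.999), although both serve mitochondrial ATP production. The mitochondrial phosphate carrier (LOC100201543) had 67 counts in A and 10 in B and a ratio of 4.22 (2.16 to 9.19). The intervals of the ferritin and of ATP synthase subunit alpha came to hold 1 when TPM was scaled over mRNA targets alone.

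Betaine-homocysteine methyltransferase (LOC100206048), which makes methionine, had 215 counts in library A against 10 in library B, or 30.8 TPM in A and 2.28 in B. Its ratio of 13.5 (7.21 to 28.6) was the highest of this group. Inositol-3-phosphate synthase (LOC100210412), the first enzyme of inositol synthesis, had 136 counts in A and 10 in B and a ratio of 8.56 (4.52 to 18.3). At the other end stood LOC100198082, the sulfatase-modifying factor, with a ratio of 0.505 (0.429 to 0.593), the narrowest interval of the 14 members that were higher in library B.

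Signalling and transcription genes gave 5 members of 58 named targets, at low levels of 3.01 to 7.065 TPM in library A against 1.73 to 8.67 TPM in library B. cGMP-dependent protein kinase 1 (LOC100201371) had 74 counts in library A against 75 in library B, or 4.75 TPM in A and 7.65 in B, a ratio of 0.621 (0.445 to 0.868). The Zic-type zinc finger gene LOC100210883, of a family of transcription factors, had 88 counts in A and 68 in B, or 7.065 TPM in A and 8.67 in B, and the interval of its ratio, 0.587 to 1.14, held 1. A mitogen-activated protein kinase kinase 6-like gene (LOC100209591), an activator of p38 kinases in mammals, had 19 counts in A and 14 in B, or 3.01 TPM in A and 3.52 in B. The cAMP-dependent protein kinase regulatory subunit LOC100211215 had 36 counts in A and 20 in B, or 3.11 TPM in A and 2.75 in B, and its log2 ratio of 0.17 became -0.17 and -0.70 after the rescalings. The intervals of these 4 lay below the median ratio of the members. Only that of the nuclear inhibitor of protein phosphatase 1 (LOC100204678, 39 counts in A and 11 in B) held it. This last interval came to hold 1 under both rescalings. Of the 58 named targets, 42 had at least 10 whole counts in A and fewer than 10 in B, so at these low levels a gene could become a member only where its level in B was relatively high, and the ratios of the 5 carry that choice.

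**Figure D3:**
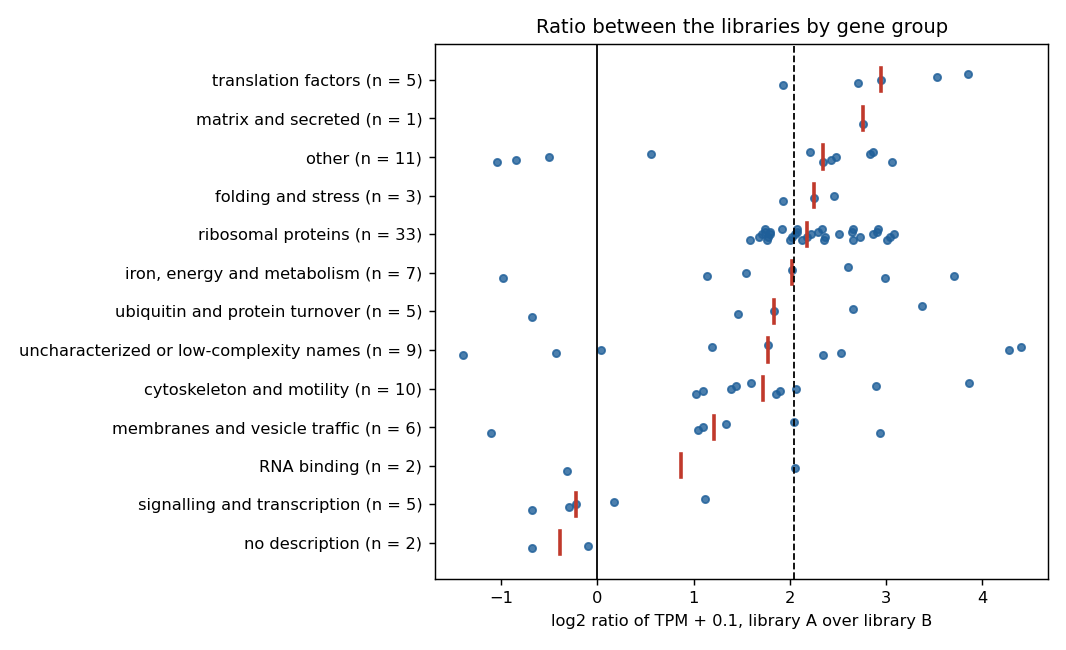
Log2 ratio of TPM + 0.1 of library A over library B, with 1 point per member and 1 row per gene group, a red bar at the median of the group, a solid line at 0 and a dashed line at the median of all members, 2.04. Ribosomal proteins lie between 1.59 and 3.08, and 3 of the 5 signalling and transcription genes lie left of 0.

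Members with other named functions numbered 11. Vigilin (LOC100201395), an RNA-binding protein with many KH domains, had 216 counts in library A against 17 in library B, or 7.058 TPM in A and 0.882 in B. Importin-5 (LOC100203123), which carries ribosomal proteins and other cargo into the nucleus, had 139 counts in A and 11 in B, or 5.79 TPM in A and 0.727 in B. Histidine-rich glycoprotein-like LOC100211415 had 195 counts in A and 14 in B. The intervals of these 3 ratios lay above the median ratio. Calpain-9-like LOC100206735, a calcium-dependent protease, had 80 counts in A and 10 in B. Of lipid metabolism, the N-acyl-phosphatidylethanolamine phospholipase D-like gene LOC100205873 had 165 counts in A and 18 in B and the fatty acid elongase LOC100210039 92 counts in A and 11 in B. Muscle-specific protein 20-like LOC100204573 had 26 counts in A and 11 in B and a log2 ratio of 0.56, which turned to -0.31 when TPM was scaled over mRNA targets alone. The RNA-binding protein 26-like gene LOC100212246, grouped by its description with the Y-box factor, had 34 counts in A and 27 in B, or 2.10 TPM in A and 2.65 in B.

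Genes with an uncharacterized or low-complexity name gave 9 members and held both extremes of the whole set. LOC100210856 had 442 counts in library A against 10 in library B, or 8.22 TPM in A and 0.295 in B, and LOC105844163 604 in A and 17 in B, or 13.6 TPM in A and 0.605 in B. Their ratios of 27.9 (15.0 to 58.5) and 22.4 (13.9 to 38.7) were the highest of all members. The lowest, 0.371 (0.172 to 0.770), was that of LOC100204430, with 13 counts in library A against 22 in library B, or 2.84 TPM in A and 7.64 in B. LOC100204711, with 302 counts in A and 37 in B, stood near the median ratio.

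In all, 14 members (14.1%) had a higher TPM in library B than in library A, beside 3.32% of the 1114 targets with at least 20 counts and 3.19% of the 1066 mRNA targets among them. The number was 16 and 17 after the rescalings. Again the choice favours such mRNAs, so the share carries no reading. Those not yet named are the FAM46A gene LOC100205372, of a family of poly(A) polymerases in mammals, nephrocystin-1-like LOC101236702, of the base of cilia, the gene LOC100213259, named after the yeast salt-stress protein NST1, LOC100200796, and the transcripts XM_012702322.1 and XM_012702189.1. The FAM46A gene had 68 counts in library A against 78 in library B, or 4.61 TPM in A and 8.40 in B, and the NST1-like gene 28 counts in A and 38 in B, or 1.17 TPM in A and 2.51 in B. Both intervals lay below 1. The unnamed transcripts had 13 counts in A and 14 in B, and 19 counts in A and 13 in B, and their intervals held 1. So did those of nephrocystin-1-like LOC101236702, with 22 counts in A and 20 in B, and of LOC100200796, with 14 counts in A and 12 in B.

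These 14 mRNAs held 938 of the member counts in library A, or 6.55%, and 1030 of those in library B, or 39.9%. Of the 7 members with at least 50 counts in library B, 6 were among them: the sulfatase-modifying factor, cullin-3, the reticulon, the FAM46A gene, the cGMP-dependent kinase and the Zic-type gene. The seventh was the Y-box factor. Counts in library B enter both sides of this overlap, so it carries no reading. No ribosomal protein, translation factor, folding gene or gene grouped with the cytoskeleton was among the 14. Of all members 14.1% were higher in library B, and of the 1114 targets of any class with at least 20 counts 3.32%. These sets were chosen by different count limits. The absence was not tested and is given no reading.

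**Figure D4:**
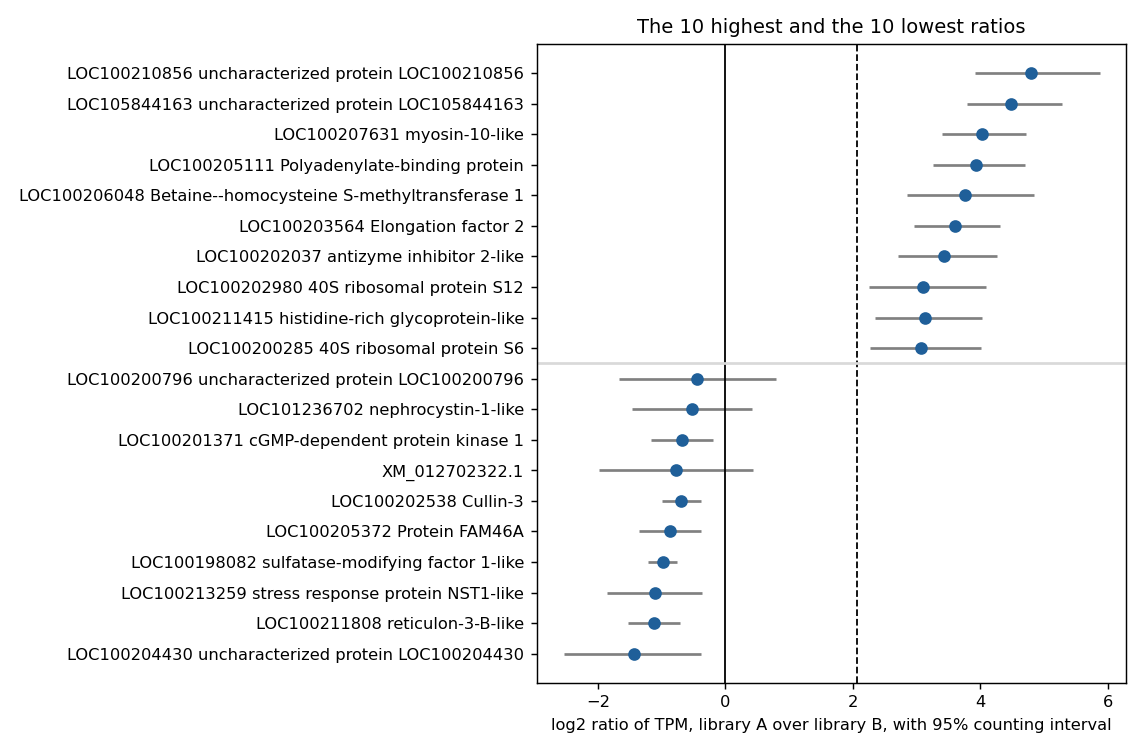
Log2 ratio of TPM, library A over library B and with no pseudocount, for the 10 members with the highest and the 10 with the lowest ratio, with bars for the 95% counting interval, a solid line at 0 and a dashed line at the median of the members. The 10 highest intervals lie wholly right of the dashed line. Of the 10 lowest, 7 lie wholly left of 0 and those of LOC100200796, LOC101236702 and XM_012702322.1 cross it.

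The members were 315 to 7781 bases long, with a median of 1153 bases, beside 1124 bases over all mRNA targets and 1920.5 bases over the 1066 mRNA targets with at least 20 counts. Ribosomal protein mRNAs were short, with a median of 648 bases. Across all 99 members, length and the log2 ratio were hardly related, with a Spearman rho of 0.103, and among the 66 that are no ribosomal proteins rho was 0.295. Within the 33 ribosomal proteins rho was 0.374. It was 0.383 among the 82 members with an interval wholly above 1, and 0.651 among the 49 of these that are no ribosomal proteins. The last 2 sets are chosen by the ratio itself. The 7 members of 4468 bases or more had a median ratio of 8.03, and 6 of them were higher in library A, while the 36 members of 505 to 998 bases had a median of 3.83. The 14 members of 2060 to 3529 bases had a median ratio of 3.98, and 6 of them were higher in library B. The libraries, the depth and the count limit are shared by all points, and a long mRNA reaches 10 counts at a lower TPM. A single count in library B stands for 1.04 TPM on the shortest member and for 0.0295 TPM on the longest. Fragment size and RNA integrity were not measured in these files, and their part was not tested.

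**Figure D5:**
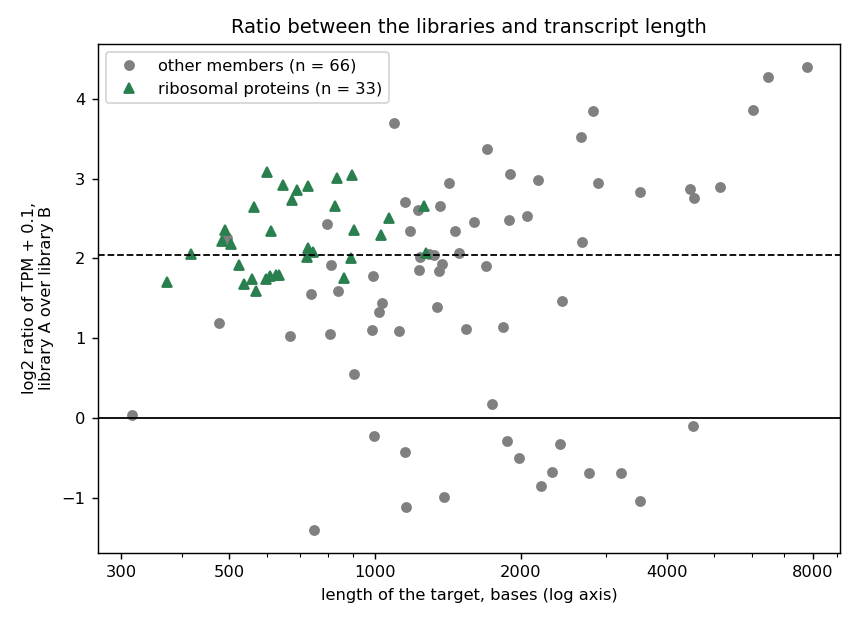
Log2 ratio of TPM + 0.1 of library A over library B against the length of the target in bases on a log axis, with ribosomal proteins as triangles and the other 66 members as circles. The solid line marks 0 and the dashed line the median of 2.04. The 3 longest members, of 6032 to 7781 bases, have log2 ratios of at least 3.86, while a second set of circles lies near or under 0 at lengths from 315 to 4533 bases.

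The limit of 10 counts was met narrowly in library B. There, 14 members had exactly 10 counts and 9 had 11, with 56 to 442 counts in A for the 14 and 26 to 139 for the 9. In library B the levels of the 14 ran from 0.295 to 7.09 TPM. Just outside, 19 mRNAs of the same kind had 9 counts in library B and 18 to 149 in library A. They include 6 ribosomal proteins, among them L19 (LOC100206718), with 22.2 TPM in A and 3.53 in B, and L23a (LOC100207752), with 34.9 TPM in A and 4.97 in B. Also there are the actin-severing cofilin (LOC100198579, 37.4 TPM in A and 5.59 in B), the chaperone endoplasmin (LOC100215003, 8.12 TPM in A and 0.779 in B) and the transcription factor Ets1 (LOC100199698, 3.84 TPM in A and 1.25 in B). No mRNA had 9 counts in library A and at least 10 in library B. Only 2 mRNAs of this kind had at least 10 counts in library B and fewer than 9 in library A, where both were at 0.

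The 50 mRNA targets that met every other condition but had fractional counts were handled apart from the members. They include some of the most abundant entries of the tables, such as the ELMO domain-containing protein 2-like gene LOC100208569, with 1741 TPM in library A against 2948 TPM in library B. Their median ratio of TPM was 1.52, against 4.19 for the members, and 17 of the 50 were higher in library B. Restricting the description to whole counts thus leaves out the mRNA targets with the largest signals of both libraries, whose reads were shared between targets. The highest of these targets have only uncharacterized or low-quality descriptions, and whether their reads come from mRNAs was not tested.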

How the data were processed

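EV RNA of 2 libraries was sequenced from both ends after preparation with the Ovation SoLo kit. The authors trimmed the reads with Trim Galore and quantified them with kallisto on the transcripts of the assembly Hydra_RP_1.0. The versions of both programs are not given in the sources used here. Estimated counts are deposited without normalization, a read that fits several targets being divided among them by kallisto. TPM, as deposited, corrects these for effective length and has the same sum in each library. The authors also listed the length and effective length of each target.

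TPM was used as deposited. Ratios are library A over library B, on log2(TPM + 0.1) where a log2 value is given and without a pseudocount otherwise. Intervals are exact (Clopper-Pearson) at 95%, scaled by the TPM per count of each target. With a single condition nothing could be tested between groups, and p-values were not computed. The paper calls the libraries biological replicates, while the labels do not say whether they come from separate cultures. A chi-square of the members' counts of 2750 on 98 degrees of freedom shows only that they are not 1 library listed again.

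Gene names came from the paper's supplementary list by unique pairs of TPM values, and groups from words of its descriptions, a gene taking the first group that fitted. The list was given in part, so low members of groups can be missing. Of 97 named members, 86 have a symbol in the annotation of the assembly HydraT2T_AEP, all protein-coding. That is another assembly, so no coordinates are given. Sequences of proteins and promoters were not analysed here, so the planned comparison of their features was not made. The members and lists were chosen with earlier results of these data known. Every member may be named; genes outside follow the count limit, except LOC100208569, chosen after its values were seen. The intervals were run on simulated counts and the name matching on a made list of genes. Those counts were drawn with counting error alone, as the intervals assume. This checks the computation and not whether the intervals are wide enough for these libraries. Computations used Python 3.11.15, pandas 2.3.3 and scipy 1.17.1.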

Additional observations from a re-analysis of the deposited data

How the results depend on the processing

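The main values were 99 members, 3.41% of the mRNA counts (mean of the libraries), a median log2 ratio of 2.04, 14 members higher in library B, an r of 0.531, 10 intervals that held 1 and a median level of 11.7 TPM. The median log2 ratio stayed above 0 under every alternative that gave one, from 1.18 to 2.07. With a minimum of 5 counts there were 238 members with 4.98% of the mRNA counts, 22 of them higher in library B, an r of 0.714, 32 intervals that held 1 and a median level of 4.75 TPM. With a minimum of 20 counts these values were 34 members, 1.84%, 9 higher in library B and 5 intervals. Taking fractional counts gave 149 members with 82.8% of the mRNA counts, 31 higher in library B, an r of 0.831 and 21 intervals; by construction this adds the most abundant targets. Keeping the 6 targets left out by name gave 4.88%. Rescaling TPM without the 5 most abundant targets and the ribosomal RNA moved the median level to 415.9 TPM, and rescaling over mRNA targets moved it to 733.9 TPM, the median log2 ratio to 1.18 and the number of intervals that held 1 to 19. With 1 library left out, the number of members ranged from 118 to 1566, the share from 3.42% to 75.5% and the median level from 1.53 to 4.08 TPM. Library B thus sets the list, since 1566 mRNAs met the rule in library A alone.

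For single members, a pseudocount added to both libraries cannot change the side of 1 on which a ratio lies, so the pseudocounts were no check here. Rescaling without the 5 most abundant targets changed the sign of 2 ratios whose interval held 1, and rescaling over mRNA targets that of 3, while no ratio whose interval excluded 1 turned round. After that second rescaling 15 intervals came to hold 1 and 6 no longer did. LOC100208569 stayed in this rescaling, and its part in these changes was not tested. No paired analysis was possible because there is 1 group. Depth limits library B most: a difference between members whose intervals overlap widely was not detectable at this depth.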
